A study of Mus musculus with 9 samples.

Results

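Mouse globin genes lie in 2 clusters, and 7 of them, the embryonic and adult-type alpha-like and beta-like genes, were followed among the 14011 genes of the deposited table. They were chosen by name, without a threshold on their values. The theta-like gene *Hbq1b* was also in the table and is not counted among the 7. The alpha cluster on chromosome 11 gave *Hba-x*, the embryonic zeta-like gene, and *Hba-a1* and *Hba-a2*, the adult-type alpha genes. The beta cluster on chromosome 7 gave *Hbb-y* and *Hbb-bh1*, the embryonic genes, and *Hbb-b1* and *Hbb-b2*, the adult-type genes.

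The RNA came from whole hearts at E10.5, with the blood they held, and was sequenced to study deletion of *Ctcf*, which encodes a DNA binding factor that organizes chromatin loops. There were 3 genotypes with 3 libraries each, and each library was a pool of 6 hearts from embryos of mixed strain. Heterozygotes were *Ctcf* fl/+; *Nkx2.5-Cre*/+ and homozygotes were *Ctcf* fl/fl; *Nkx2.5-Cre*/+. Controls carried no driver, and their genotype is given as *Ctcf* fl/fl by the sample labels and as *Ctcf* fl/+ by the study's text. The *Nkx2.5-Cre* driver recombines floxed alleles in cardiac progenitors and their descendants, so cells of the heart outside that lineage keep *Ctcf*, and every comparison with controls also includes the driver. All groups share the floxed background, and no group without a floxed allele was analysed here.

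A hemoglobin molecule pairs alpha-like with beta-like chains around heme. At this stage the circulating red cells are mostly primitive erythroblasts, which are born in the yolk sac, mature in the bloodstream and make embryonic globins together with the adult-type alpha chains. Definitive red cells of the fetal liver use the adult-type genes of both clusters, and within the primitive lineage the choice among beta-like genes also shifts with age, from *Hbb-bh1* towards *Hbb-y*. Distal enhancers, the locus control region of the beta cluster and the regulatory elements upstream of the alpha cluster, act on all the genes of a cluster through the binding of GATA1, KLF1, TAL1 and NFE2.

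The stretch just upstream of each gene is where these factors meet the transcription machinery, and it separates the genes that are alike from those that are not. The 120 bases before the RefSeq start are shown on the coding strand, 5′ to 3′, for the 6 members that matched the RefSeq promoter table of build GRCm38.p6, in which *Hbb-b1* and *Hbb-b2* are named Hbb-bs and Hbb-bt. *Hbb-bh1* had no entry. Capitals mark the letters searched for on both strands. They were CACCC with its longer form CCACACCC for the motif of KLF1, AGATAA or its variant TGATAA for the GATA factors, CCAAT for the box of that name and ATAAA for the TATA box.
Hbb-y: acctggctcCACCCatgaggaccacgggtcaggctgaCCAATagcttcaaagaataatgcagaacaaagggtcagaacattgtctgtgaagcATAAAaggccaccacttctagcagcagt
Hbb-b1: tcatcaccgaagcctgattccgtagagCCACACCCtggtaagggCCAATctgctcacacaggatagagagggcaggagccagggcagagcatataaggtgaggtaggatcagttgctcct
Hbb-b2: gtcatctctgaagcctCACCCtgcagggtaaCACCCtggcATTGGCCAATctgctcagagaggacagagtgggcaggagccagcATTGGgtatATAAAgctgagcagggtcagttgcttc
Hba-x: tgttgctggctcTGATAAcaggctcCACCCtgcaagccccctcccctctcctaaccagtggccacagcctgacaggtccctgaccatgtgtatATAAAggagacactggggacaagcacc
Hba-a1: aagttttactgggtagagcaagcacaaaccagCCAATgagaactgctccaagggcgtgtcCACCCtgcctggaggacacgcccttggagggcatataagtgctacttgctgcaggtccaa
Hba-a2: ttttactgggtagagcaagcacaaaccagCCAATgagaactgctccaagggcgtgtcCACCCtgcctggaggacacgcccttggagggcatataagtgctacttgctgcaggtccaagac
In GRCm38.p6 these stretches are chr7:103853208-103853327, chr7:103827929-103828048 and chr7:103813924-103814043 on the minus strand for the beta cluster, and chr11:32276480-32276599, chr11:32283552-32283671 and chr11:32296372-32296491 on the plus strand for the alpha cluster.

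CACCC, the core of the KLF1 motif, was found in 6 of 6 stretches and in 31.7% of 32851 promoters of the same length. The longer form, which contains the core, was found for *Hbb-b1* and in 1.84% of all promoters. CCAAT was found for 5 of the 6 genes, without *Hba-x*, against 21.3% of all promoters. ATAAA, a form of the TATA box, was found for *Hbb-y*, *Hbb-b2* and *Hba-x*, against 20.2%. The stretches of *Hbb-b1*, *Hba-a1* and *Hba-a2* hold tataag, which the letters searched for do not cover. They were therefore not shown to lack a TATA box. The GATA form TGATAA was found for *Hba-x* and in 3.55% of promoters. The other form, AGATAA, was in 4.36% of promoters and in none of the 6 stretches. The stretches of *Hba-a1* and *Hba-a2* are the same sequence offset by 3 bases, and each occurs at 2 places in NCBIM37, the build of the deposited files.

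In NCBIM37 the beta members span chr7:110961038-111001754 and the alpha members lie within chr11:32176400-32200873, with exonic lengths between 614 and 938 bp. Coding sequences of *Hbb-b1* and *Hbb-b2* were identical at 443 of 444 bases, and those of *Hba-a1* and *Hba-a2* at 428 of 429. Of all stretches of 50 bases in the longest transcript, 52.3% of those of *Hbb-b1* were shared with *Hbb-b2*, and 86.9% of those of *Hba-a2* with *Hba-a1*. The split of reads within these pairs is therefore uncertain, and their sums are given as well. No stretch of 50 bases was shared between an embryonic member and another member of its cluster.

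Values are the authors' normalized reads, in which the reads of a gene plus 0.5 are divided by an effective library size, and total reads ranged from 4294537 to 11629365 per library. Column names tie the homozygous libraries to samples 1 to 3. For the other groups they give only the genotype, so those libraries are called A, B and C in the order of the numbers that end the column names. The columns named DH were assigned to the heterozygotes, the double heterozygotes of the labels, and those named Het to the controls, which the study's text gives as carrying 1 floxed allele. Sample titles, however, use HET for the heterozygotes, so this rests on that reading. The column means equaled the group averages in the study's tables within 0.1% for 1998 of 1998 genes in controls and 787 of 787 in heterozygotes. *Ctcf* itself was at 121, 122 and 122 in controls, at 101, 94.2 and 97.0 in heterozygotes and at 79.6, 80.0 and 84.7 in homozygotes, in the order of the labels. No source says whether the pools of a group came from separate litters, so p-values measure only the spread between pools.

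The 7 globin genes took between 2.93% and 7.94% of all reads of a library. Their share was 5.36%, 4.24% and 3.66% in controls A, B and C, 2.93%, 4.78% and 3.77% in heterozygotes A, B and C, and 6.19%, 6.65% and 7.94% in homozygotes 1, 2 and 3. All 3 homozygous libraries lay above all 6 others. In whole hearts, more red cells and more globin RNA per red cell cannot be told apart.

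*Hbb-y*, the main embryonic beta-like gene, had the highest level per kb of exonic length of the 7, with 29171 ± 10647 (SD over the 9 libraries). *Hbb-bh1* followed with 15453 ± 5365 per kb, then *Hba-x* with 11427 ± 4024, *Hba-a1* with 7002 ± 2635 and *Hba-a2* with 5948 ± 1780. *Hbb-b1* at 1231 ± 783 and *Hbb-b2* at 1032 ± 341 per kb were the lowest. Each gene was above the next one in 9 of 9 libraries, except that *Hba-a1* was above *Hba-a2* in 7 and *Hbb-b1* above *Hbb-b2* in 4, so the order within these near-identical pairs was not set. *Hbb-y* and *Hbb-bh1* led the beta cluster, and the adult-type beta genes lay below the adult-type alpha genes. *Hba-x* lay above *Hba-a1* and *Hba-a2* taken singly but below their sum in every library, at 0.789 to 0.935 of it. The annotated exons of the 6 members with a RefSeq start begin before it, by 3 to 200 bases and most for *Hba-x*, and a longer exonic length lowers the value per kb.

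**Figure D1:**
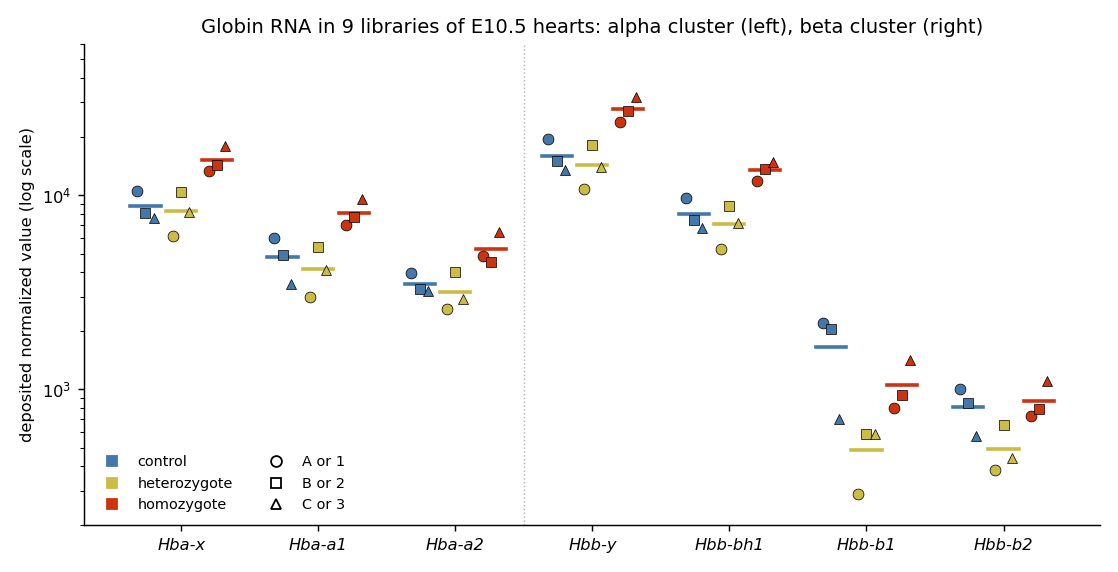
Deposited normalized value (log axis) of each globin gene in each of the 9 libraries, with the alpha cluster left and the beta cluster right of the dotted line. Points are libraries, colors are genotypes and bars are group means (n = 3). For *Hbb-y*, *Hbb-bh1*, *Hba-x*, *Hba-a1* and *Hba-a2* the 3 homozygous points lie above all others, while for *Hbb-b1* controls A and B, at 2201 and 2043, are the highest.

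Homozygotes were compared with controls for the loss of both alleles in *Nkx2.5-Cre* cells. Of the 7 globin genes 5 rose in homozygotes, all 3 embryonic genes and both adult-type alpha genes, with log2 fold changes from 0.59 to 0.80, and neither adult-type beta gene was called. In this comparison 15.2% of all genes tested were called, and 7.19% were called higher. The median log2 fold change of the members was 0.77, against -0.0011 over all genes.

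*Hbb-y* was at 19459, 15043 and 13414 in controls A, B and C and at 23843, 27222 and 31813 in homozygotes 1, 2 and 3. It rose by 0.80 on the log2 scale ± 0.19 (SE, adjusted p = 0.0148, limma). *Hbb-bh1* was at 9620, 7468 and 6771 in controls and at 11792, 13649 and 14875 in homozygotes, for a log2 fold change of 0.77 ± 0.18 (adjusted p = 0.0113, limma). For both embryonic beta-like genes the lowest homozygote lay above the highest control, which was control A. Groups that did not overlap, with homozygotes above, were found for 16.6% of all genes.

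*Hba-x*, the embryonic gene of the other cluster, was at 10508, 8082 and 7652 in controls and at 13337, 14257 and 17872 in homozygotes. The log2 fold change of 0.80 ± 0.18 (adjusted p = 0.0109, limma) was the same size as that of *Hbb-y* within the error. *Hba-a1* was at 6032, 4897 and 3470 in controls and at 7038, 7725 and 9557 in homozygotes, for a log2 fold change of 0.78 ± 0.21 (adjusted p = 0.0256, limma). *Hba-a2* was at 3991, 3276 and 3215 in controls and at 4848, 4520 and 6475 in homozygotes, with an adjusted p of 0.0266 (limma). All 3 alpha-like genes were higher in every homozygous library than in any control. Summed over the near-identical pair, *Hba-a1* plus *Hba-a2* averaged 8293 ± 1672 in controls and 13388 ± 2297 in homozygotes (SD, n = 3), which is 1.62 times higher.

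*Hbb-b1*, the first of the adult-type beta genes, was at 2201, 2043 and 700 in controls and at 796, 930 and 1422 in homozygotes. The log2 fold change was -0.53 ± 0.37 (adjusted p = 0.382, limma). *Hbb-b2* was at 999, 853 and 575 in controls and at 730, 792 and 1098 in homozygotes, for a log2 fold change of 0.12 ± 0.21 (adjusted p = 0.745, limma). Both genes overlapped between the groups, since controls A and B were high and control C was lower than any homozygote. Their sum was 3200, 2896 and 1275 in controls and 1526, 1722 and 2520 in homozygotes.

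The 5 calls were close to the threshold. Without control C none of the 5 was called and *Hbb-b1* was called lower instead (log2 fold change -1.06, adjusted p = 0.0355, limma), without homozygote 3 there were 2 calls, without control B 3 and without homozygote 2 4. Quantile normalization and limma without its mean-variance trend each left 0 calls, and *Hbb-y* then had adjusted p values of 1 and 0.0544 respectively. The globin genes are short, and over the 715 genes with at most 1000 bp of exons the median log2 fold change was 0.21. With the trend of values with exonic length removed in each library, an alternative chosen after seeing the data, the log2 fold change of *Hbb-y* was 0.59 (adjusted p = 0.0585) and only *Hba-x* of the 7 was called, with 0.63 (adjusted p = 0.0337, limma).

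Both groups carry the driver in the comparison of homozygotes with heterozygotes, which differ in the second *Ctcf* allele. Here 6 of the 7 globin genes rose, and all 7 were higher in every homozygote than in any heterozygote. Of all genes 13.6% were called, 6.87% called higher and 6.7% lower, and 15.3% had homozygotes above without overlap. The median log2 fold change of the members was 0.95, against -0.0045 over all genes and 0.19 over the 715 short ones. Both comparisons share the same 3 homozygous libraries.

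*Hbb-y* was at 10778, 18083 and 13881 in heterozygotes A, B and C, so that heterozygote A was the lowest of the 9 libraries. Its log2 fold change in homozygotes was 0.98 ± 0.19 (adjusted p = 0.00567, limma). *Hbb-bh1* was at 5262, 8772 and 7183 in heterozygotes, a log2 fold change of 0.95 ± 0.18 (adjusted p = 0.00382, limma). Heterozygote A was lowest and heterozygote B highest of its group for both embryonic beta-like genes.

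*Hba-x* was at 6179, 10364 and 8212 in heterozygotes, and its log2 fold change in homozygotes was 0.90 (adjusted p = 0.00635, limma). *Hba-a1*, at 2971, 5388 and 4093, differed by 1.00 (adjusted p = 0.00863, limma). *Hba-a2*, at 2600, 4021 and 2920, differed by 0.74 (adjusted p = 0.00943, limma). The order of the 3 heterozygous libraries was the same for the 3 alpha-like genes as for the embryonic beta-like genes.

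*Hbb-b2* was at 383, 656 and 444 in heterozygotes and rose in homozygotes by 0.84 on the log2 scale (adjusted p = 0.0195, limma). *Hbb-b1* was at 290, 591 and 586 in heterozygotes, and its log2 fold change of 1.13 ± 0.37 was the largest of the 7 but did not pass the test (adjusted p = 0.0634, limma). Summed, the adult-type beta pair averaged 983 ± 290 in heterozygotes and 1922 ± 526 in homozygotes (SD, n = 3), without overlap. With a library left out, 5 to 7 of the 7 passed. Limma without its trend left 3 calls, which were *Hbb-y*, *Hbb-bh1* and *Hba-x*, and with the length trend removed 6 were called.

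**Figure D2:**
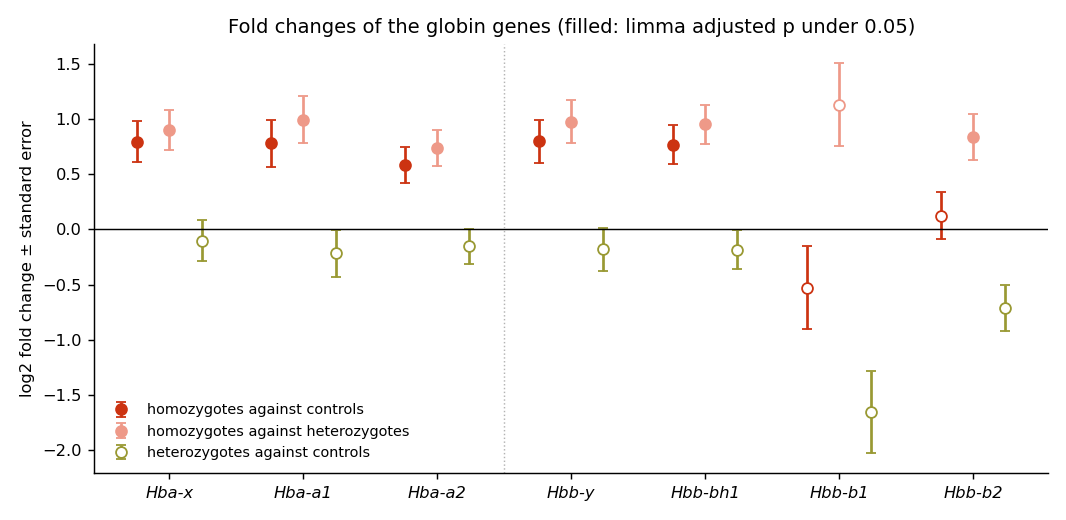
Log2 fold change (points) with its standard error (bars) for each globin gene in the 3 comparisons, alpha cluster left and beta cluster right of the dotted line. Filled points passed an adjusted p of 0.05 with limma. In homozygotes the alpha-like and embryonic beta-like genes were 0.59 to 1.00 higher than in either other group, while *Hbb-b1* stood at -0.53 against controls and 1.13 against heterozygotes.

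Heterozygotes differ from controls by the driver and 1 *Ctcf* allele. None of the 7 globin genes was called in this comparison with limma, edgeR or DESeq2, and 0.143% of all genes were called with limma, 0.0928% higher and 0.05% lower. At an unadjusted p under 0.05 limma found 2 of the 7, and both were adult-type beta genes, against 7.37% of all genes. The 5 other members had log2 fold changes between -0.22 and -0.10, and their groups overlapped.

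*Hbb-b1* was lower in each heterozygote, at 290, 591 and 586, than in any control, the lowest of which was control C at 700. Its log2 fold change was -1.66 ± 0.37 (unadjusted p = 0.000644, adjusted p = 0.176, limma). Groups that did not overlap were found for 6.93% of all genes with heterozygotes below and for 7.41% with heterozygotes above. *Hbb-b2* had a log2 fold change of -0.71 ± 0.21 (adjusted p = 0.394, limma), and its highest heterozygote, at 656, lay above control C at 575. The sum of both was 672, 1247 and 1030 in heterozygotes, below all controls. Without control C, *Hbb-b1* was called lower in heterozygotes (log2 fold change -2.19, adjusted p = 0.0023, limma), and over the other single libraries left out its adjusted p lay between 0.152 and 0.536.

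Marker genes of other tissues set control A apart. The 14 markers of liver and yolk sac endoderm, tissues that are not part of the heart, summed to 1199 in control A, 87.9 in control B and 98.4 in control C. They summed to 35.3, 27.8 and 24.5 in heterozygotes A, B and C and to 102, 23.2 and 113 in homozygotes 1, 2 and 3. *Afp*, the alpha-fetoprotein gene of both tissues, was at 595 in control A and at 47.6 and 49.2 in controls B and C. In heterozygotes *Afp* was at 9.66, 6.24 and 3.81, and in homozygotes at 50.8, 3.64 and 55.6. *Alb*, the albumin gene of liver, was at 0.175 in control A, at 4.73 and 5.34 in controls B and C, between 0.0631 and 0.245 in heterozygotes and at 5.79, 0.254 and 6.17 in homozygotes. The heterozygotes, in which *Hbb-b1* was lowest, were low for both markers, as was homozygote 2 for both and control A for *Alb*. Controls B and C were alike for both markers, with *Hbb-b1* at 2043 and 700. Homozygote 1 was above homozygote 2 for both markers, with *Hbb-b1* at 796 against 930. The median log2 fold change of the 14 markers was -2.09 in heterozygotes against controls, -1.23 in homozygotes against controls and 0.74 in homozygotes against heterozygotes. None of the 14 passed the test in either comparison with controls. *Serpina1a* rose in homozygotes against heterozygotes, where 6.87% of all genes were called higher. Its values were low, at 0.0490, 0.0631 and 0.115 in heterozygotes and 1.70, 0.423 and 2.93 in homozygotes. The number of the 14 markers at 0 reads was 0 in every control, 1, 2 and 5 in the heterozygotes and 0, 2 and 0 in the homozygotes. The part of such tissue in the *Hbb-b1* values was not tested.

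Ratios of globin genes were taken within each library, on values per kb. The ratio of embryonic to adult-type beta-like RNA, *Hbb-y* plus *Hbb-bh1* over *Hbb-b1* plus *Hbb-b2*, was 11.4, 9.75 and 19.2 in controls A, B and C. It was 28.3, 25.7 and 24.9 in heterozygotes and 28.2, 28.8 and 22.5 in homozygotes. All 6 libraries with the driver lay above all 3 controls, and control C lay between the other controls and those 6. Means were 13.4 ± 5.07 in controls, 26.3 ± 1.74 in heterozygotes and 26.5 ± 3.44 in homozygotes (SD, n = 3). The ratio was 2.05 times higher in homozygotes than in controls and 2.04 times higher in heterozygotes (exact permutation test, two-sided, p = 0.1 in each, adjusted p = 0.257). Homozygotes and heterozygotes differed by 1.00 times (exact permutation p = 1), less than the spread within each. With 3 libraries against 3 the exact test cannot give a p under 0.1, and values were adjusted over the 18 ratio and sum tests, so none of these could pass.

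*Hbb-bh1* over *Hbb-y*, the ratio of the embryonic genes, was nearly the same in all libraries. It was 0.532, 0.534 and 0.543 in controls, 0.526, 0.522 and 0.557 in heterozygotes and 0.532, 0.540 and 0.503 in homozygotes. No pair of groups differed by more than the spread within groups (exact permutation p from 0.5 to 1). The near-identical adult-type genes behaved otherwise, since *Hbb-b1* over *Hbb-b2* was 1.79 and 1.95 in controls A and B and 0.992 in control C. It was 0.617, 0.734 and 1.08 in heterozygotes and 0.888, 0.956 and 1.054 in homozygotes. Controls A and B stood apart from the other 7 libraries, which lay between 0.617 and 1.08.

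In the alpha cluster, *Hba-x* over *Hba-a1* plus *Hba-a2* was 0.837, 0.789 and 0.899 in controls, 0.874, 0.874 and 0.932 in heterozygotes and 0.894, 0.935 and 0.889 in homozygotes. The groups overlapped in all 3 comparisons, and the largest difference was 1.08 times, between homozygotes and controls (exact permutation p = 0.3, adjusted p = 0.491). *Hba-a1* over *Hba-a2* ranged from 0.891 in control C to 1.41 in homozygote 2.

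Alpha-like over beta-like RNA was 0.501, 0.507 and 0.523 in controls, 0.548, 0.548 and 0.534 in heterozygotes and 0.526, 0.479 and 0.536 in homozygotes. Heterozygotes lay above controls without overlap, by 1.06 times (exact permutation p = 0.1, adjusted p = 0.257). Homozygotes overlapped both other groups (exact permutation p = 0.9 and 0.2).

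**Figure D3:**
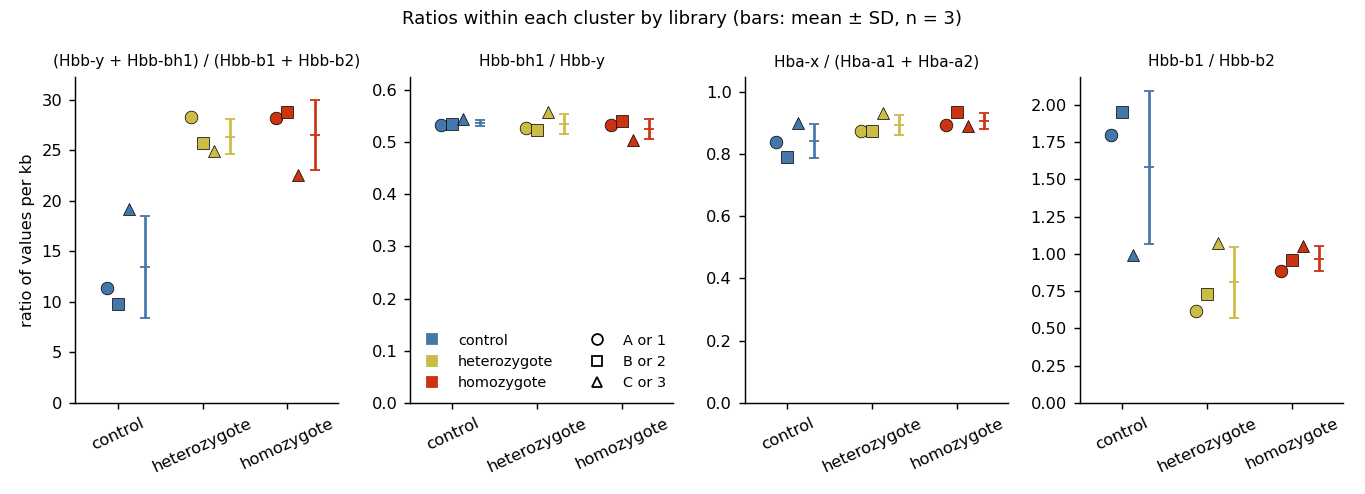
Ratios of globin genes in each library, on values per kb, with linear axes from 0. Points are libraries, colors are genotypes, and bars beside them give the mean and SD (n = 3). The embryonic to adult-type beta-like ratio is 9.75 to 19.2 in controls and 22.5 to 28.8 in the 6 libraries with the driver, while *Hbb-bh1* over *Hbb-y* stays between 0.503 and 0.557, and *Hbb-b1* over *Hbb-b2* is highest in controls A and B.

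The summed globin value was 52810, 41661 and 35798 in controls, 28463, 47875 and 37319 in heterozygotes and 62384, 69095 and 83112 in homozygotes. Homozygotes were 1.66 times above controls and 1.92 times above heterozygotes, without overlap (exact permutation p = 0.1 each, adjusted p = 0.257). Heterozygotes overlapped controls and were 0.864 times as high (exact permutation p = 0.5).

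Over the 9 libraries the log2 values of the 3 embryonic and 2 adult-type alpha genes were correlated with r from 0.951 to 0.997. *Hbb-b1* had r from 0.446 to 0.582 with these 5 genes and 0.889 with *Hbb-b2*, and *Hbb-b2* had r from 0.752 to 0.836 with the 5. These are descriptions over 9 libraries that share genotype differences and blood content. The genes outside the clusters whose log2 values were most like the summed globin value, of 9840 compared, included *Car2* (r = 0.995), *Alas2* (0.994), *2010011I20Rik* (0.993) and *Fth1* (0.993). *Alas2* encodes an enzyme of heme synthesis, *Car2* a carbonic anhydrase of red cells and *Fth1* the heavy chain of ferritin.

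Other genes of red cells rose too. Of 14 genes on the erythroid transcription factor list, which also holds *Trim58*, 5 rose in homozygotes against controls and 9 against heterozygotes, and none fell. Over all genes 7.19% and 6.87% were called higher. The median log2 fold changes of the list were 0.37 and 0.56. *Klf1*, which activates adult beta globin, averaged 41.2 in controls, 37.2 in heterozygotes and 68.0 in homozygotes, and its log2 fold change against controls was 0.73 (adjusted p = 0.00452, limma). *Gata1*, a master regulator of red cell genes, averaged 38.2, 34.9 and 57.7 and rose by 0.59 (adjusted p = 0.0312, limma). *Tal1*, *Nfe2* and *Lyl1* also rose against both groups, while *Gata2*, a factor of early progenitors, had log2 fold changes of 0.04 and 0.01 that were not called.

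Of 20 genes of the red cell membrane and cytoskeleton, 12 rose in homozygotes against controls and 14 against heterozygotes, with medians of 0.53 and 0.70, beside the same 7.19% and 6.87% of all genes. *Slc4a1*, the anion exchanger band 3, averaged 808 in controls, 782 in heterozygotes and 1250 in homozygotes. *Rhd*, of the Rh complex, averaged 47.0, 48.4 and 82.2. The 8 members not called against controls were *Slc2a1*, *Aqp1*, *Tmod1*, *Mpp1*, *Spnb1*, *Epb4.1*, *Gypc* and *Icam4*. The glucose transporter gene *Slc2a1* averaged 535, 584 and 511, and the spectrin gene *Spnb1* averaged 315, 307 and 426 (adjusted p = 0.0725 against controls, limma).

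Heme supplies the prosthetic group of every globin chain, and of 17 genes for heme synthesis and iron handling 13 rose against controls and 15 against heterozygotes, with medians of 0.51 and 0.63, where 7.19% and 6.87% of all genes were called higher. *Alas2*, the first enzyme of heme synthesis in red cells, averaged 371, 323 and 562, and *Blvrb*, a biliverdin reductase, averaged 56.1, 51.4 and 98.4. Of 11 other red cell enzymes and signalling genes, 7 rose against controls and 9 against heterozygotes. *Pklr*, the pyruvate kinase of red cells and liver, averaged 112, 106 and 200, and *Epor*, the erythropoietin receptor, 38.1, 35.9 and 59.1. *Kit*, a receptor of progenitors, was the 1 gene of that list that fell, with a log2 fold change against controls of -0.61 (adjusted p = 0.0121, limma). None of the genes of these 4 lists was called between heterozygotes and controls. The counts against controls also moved when single libraries were left out. Without control B, control C or homozygote 3 the transcription factors had 2 calls, and the membrane genes had 3 when any 1 of these or homozygote 2 was left out. The heme and iron genes had 8 calls without control C and 8 without homozygote 3, the enzyme and signalling genes had 5 to 8 higher calls with any library left out, and limma without its trend left 2, 1, 4 and 2 higher calls in the 4 lists. Against heterozygotes, leaving out homozygote 3 lowered the transcription factor calls to 5 and the membrane calls to 8, and limma without its trend left 6, 6, 8 and 7 in the 4 lists.

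The summed globin value divided by the summed value of the transcription factor and membrane lists, 34 genes in all, was 12.1, 11.3 and 9.38 in controls, 8.99, 10.5 and 10.1 in heterozygotes and 13.0, 13.0 and 14.8 in homozygotes. All 3 homozygotes lay above all other libraries. The ratio was 1.25 times higher than in controls and 1.38 times higher than in heterozygotes (exact permutation p = 0.1 each, adjusted p = 0.257). The 34 genes include some that were not called, *Slc2a1* and *Tmod1* among them, so the ratio is not a value per red cell. With the length trend removed, the median log2 fold change against controls was 0.55 for the 7 globin genes, 0.58 for the membrane list and 0.40 for the transcription factors, so that the globin genes no longer had the highest median. With quantile normalization the globin median against controls was 0.37, below those of the 4 red cell lists, which lay between 0.38 and 0.51. That method gives each rank the same value in every library, and *Hbb-y* held the top rank in all controls and homozygotes. It therefore limits changes of the most abundant genes, and these medians cannot rank the lists. With the length trend removed, against heterozygotes the globin median stayed the highest of these 3 lists, at 0.78 against 0.73 and 0.51.

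Among known regulators of globin switching no gene rose. Of 13 such genes 5 fell in homozygotes against controls, against 8.03% of all genes called lower. They were *Sox6*, which silences embryonic globin in definitive red cells, *Nr2c1* and *Nr2c2*, the nuclear receptors that bind embryonic globin promoters, *Chd4*, a remodeler of the NuRD complex, and *Igf2bp1*, an RNA binding protein of the Lin28b pathway. *Nr2c1* averaged 15.8 in controls, 15.2 in heterozygotes and 10.4 in homozygotes and fell against both groups (log2 fold changes of -0.59 and -0.53, adjusted p = 0.00942 and 0.0185, limma). It was the 1 gene of the 13 called against heterozygotes, where 6.7% of all genes were called lower, and *Nr2c2* had a log2 fold change of -0.09 there (adjusted p = 0.528, limma). *Bcl11a*, a repressor of embryonic globin, averaged 15.7 in controls and 15.4 in heterozygotes and was lower in every homozygote than in any other library. It was not called (adjusted p = 0.0757 against controls, limma). Homozygotes lay below without overlap for 16.5% of all genes against controls and for 15.5% against heterozygotes. Most of these genes are also expressed outside red cells, so their values in whole hearts are not values of the red cells. The 5 calls became 3 without control C or without homozygote 3, 2 with limma without its trend and 1 with the length trend removed. The 1 call against heterozygotes was lost with DESeq2 and without heterozygote A, heterozygote C or homozygote 2.

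**Figure D4:**
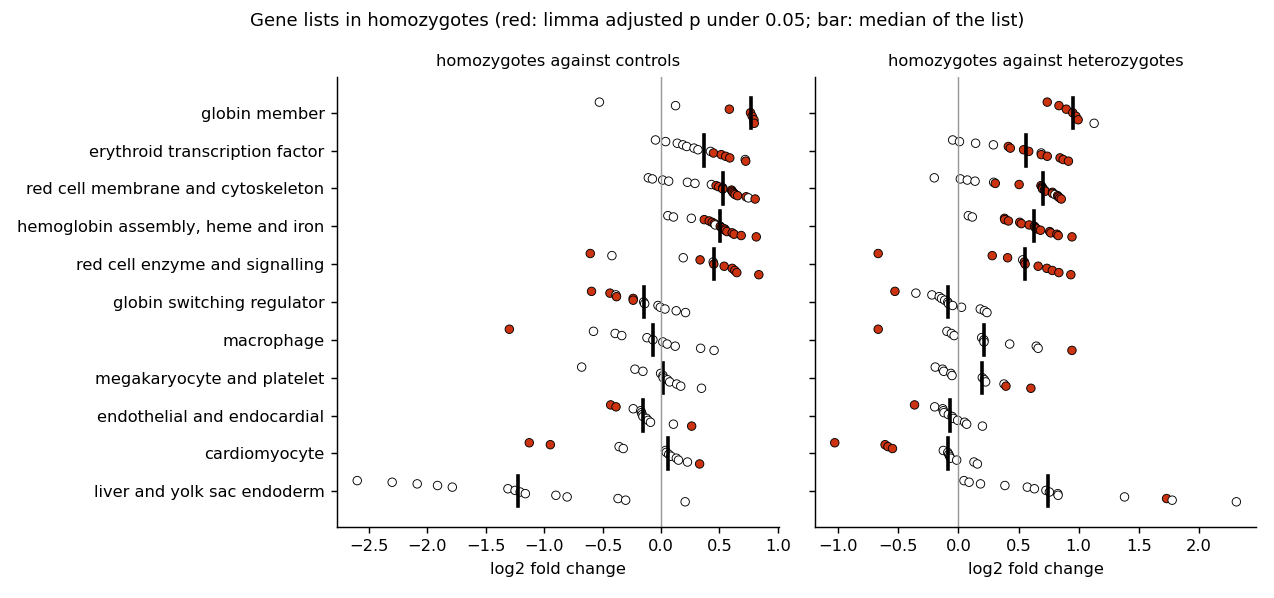
Log2 fold change of each gene (points) of the globin, red cell, regulator and other cell type lists in homozygotes against controls (left) and against heterozygotes (right). Red points passed an adjusted p of 0.05 with limma and black bars are list medians. The 4 red cell lists have medians from 0.37 to 0.53 on the left and from 0.55 to 0.70 on the right, below the globin medians of 0.77 and 0.95, the liver and yolk sac endoderm markers have medians of -1.23 and 0.74, and the medians of the other lists lie between -0.16 and 0.21.

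Lists of other cells of blood and heart were counted in the same way. The share of the whole table that passed was 15.2% in the comparison with controls and 13.6% in that with heterozygotes. Of 11 megakaryocyte and platelet genes none was called against controls and 2, *Plek* among them, rose against heterozygotes, and the list summed to 174 to 184 in controls, 150 to 183 in heterozygotes and 177 to 188 in homozygotes. Of 11 macrophage genes *Lyz2*, a lysozyme gene, fell against both groups (log2 fold changes of -1.30 and -0.67, adjusted p = 0.00142 and 0.0496, limma) and *C1qb* rose against heterozygotes, and their sum was 47.4 to 55.5 in controls, 33.8 to 35.0 in heterozygotes and 26.9 to 51.0 in homozygotes. Against heterozygotes no macrophage gene was called with edgeR, DESeq2, limma without its trend or without any 1 control, and the 2 platelet calls fell to 0 without heterozygote A, heterozygote B or homozygote 2. The 12 cardiomyocyte genes, which include the abundant sarcomere genes, summed to 19562 to 22110 in controls and 19320 to 22133 in homozygotes, with 1 called higher and 2 lower, of which *Ryr2*, the calcium release channel gene, had a log2 fold change of -1.13. Against heterozygotes 4 were called lower, or 2 without heterozygote B or homozygote 3, and the heterozygote sums were 22447 to 25435. The 12 endothelial and endocardial genes had 1 called higher and 2 lower against controls, with a median log2 fold change of -0.16, and 7 were called lower without homozygote 1.

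Genes around the clusters were examined for changes that might extend beyond the globin genes. Within 200 kb of the beta cluster 0 genes other than the 4 globin genes were in the table. Of the 6 neighbors of the alpha cluster in the table, *Snrnp25*, a spliceosome gene, rose against controls by 0.30 on the log2 scale (adjusted p = 0.0468) and against heterozygotes by 0.34 (adjusted p = 0.0266, limma). *Sh3pxd2b*, an adaptor gene of podosomes, fell against controls (log2 fold change -0.41, adjusted p = 0.0108, limma). The *Snrnp25* result against controls lay close to the threshold of 0.05. Across the whole table the share passing was 15.2% for homozygotes versus controls and 13.6% for homozygotes versus heterozygotes. Whether the 6 neighbors exceeded these shares was not tested. *Nprl3*, whose introns hold the main alpha globin enhancers, averaged 22.3 in controls, 24.0 in heterozygotes and 21.9 in homozygotes and was not called, nor were *Rhbdf1*, *Mpg* and *Ubtd2*. Of other globin genes, *Hbq1b*, a theta-like gene of the alpha cluster, averaged 12.2, 8.52 and 16.2 and rose against heterozygotes (log2 fold change 0.90, adjusted p = 0.00839, limma). *Mb*, the myoglobin gene of muscle, averaged 27.5, 26.0 and 21.9 and was not called.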

How the data were processed

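Polyadenylated RNA of E10.5 hearts was sequenced in 9 libraries, 3 per genotype, each from 6 pooled hearts. The submitters' processing notes name CASAVA 1.8, cutadapt 1.6.1, RSEM 1.20, Bowtie2 0.12.7 and limma, with no role or order, on NCBIM37, and the study's methods name Ensembl gene build 65. The authors deposited 1 table of signal values per gene, which were whole reads plus 0.5 scaled by the library total times a factor equal to edgeR's TMM. Whole reads came out for 100% of values within 0.01 of a read. The table holds 14011 genes, each reaching a value of 1 in 3 or more libraries, as after a filter on low genes by the authors. All 9 value columns were used. Total reads ranged from 4294537 to 11629365, and replicate pairs all differed beyond sampling noise (chi-square over its degrees of freedom between 3.22 and 7.15).

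Values were analyzed as log2(value + 0.5) with limma 3.58.1 in R 4.3.3, in 1 fit of 3 groups with a mean-variance trend. The p-values were adjusted over the whole table by the method of Benjamini and Hochberg, and an adjusted p under 0.05 was a call. Ratios and sums were compared with exact permutation tests. Genes were named from GENCODE M1, which placed 13987 of the genes. The members and lists were chosen with earlier results of these data known. Named were all 7 members, *Ctcf*, up to 5 called or abundant genes of each list, table genes within 200 kb of a cluster and the 5 genes most correlated with the summed globin value among genes whose mean value reached 10. *Gata2*, *Bcl11a*, *Rhd*, *Alb* and the genes named beyond these 5 were added after their values were seen. Some genes that the rule names are not reported here. Tables were made with Python 3.11.15.

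Alternatives were pseudocounts of 0.1 and 1, filters at mean values of 1 and 10, only the groups compared, quantile normalization, scaling without globin genes, limma without the trend, edgeR 4.0.16 and DESeq2 1.42.0 on the recovered reads, a threshold of 0.01, a replicate block and leaving out each library. Removal of the length trend was added after the data were seen. On simulated data for the 3-group design with 200 changed genes among 14011, limma called 75% of genes with a 2-fold change, 87% of those with a 4-fold change and 14 unchanged genes.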

Additional observations from a re-analysis of the deposited data

How the results depend on the processing

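The count of globin genes called between homozygotes and controls, 5, became 0 with quantile normalization, 0 with limma without the trend, 0 at an adjusted p under 0.01, 3 with DESeq2 and 1 with the length trend removed, and 1 to 5 with a library left out. The 1 call without control C was *Hbb-b1*, lower in homozygotes, so that 0 genes were called higher there. Quantile normalization sets the top-ranked gene of every library to 1 value, and *Hbb-y* was that gene in all controls and homozygotes, so its log2 fold change was 0.0000 by construction. Against heterozygotes the 6 calls became 3 with limma without the trend, 4 with quantile normalization, 5 with DESeq2, 5 at an adjusted p under 0.01, 7 with only the groups compared and 5 to 7 with a library left out. Between heterozygotes and controls there were 0 to 1 calls with a library left out. The causes of the other changes were not tested. *Hbb-b2*, not called between homozygotes and controls, turned to -0.0369 with quantile normalization and -0.0746 with the length trend removed, and it ranged from -0.103 to 0.2952 with a library left out, being negative without control C (-0.103) or homozygote 3 (-0.052). Between heterozygotes and controls, uncalled log2 fold changes with a library left out ranged from -0.3671 to 0.0061 for *Hbb-y*, -0.3552 to 0.0134 for *Hbb-bh1*, -0.282 to 0.0911 for *Hba-x* and -0.4308 to 0.0049 for *Hba-a1*, positive without heterozygote A and, for *Hba-x* at 0.0377, without control A. The ratios and sums kept their side of the threshold under every alternative tried, which 3 libraries against 3 could not pass.

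The numbers that end the column names did not pair the libraries, since libraries with the same number had correlations of their deviations from -0.0429 to 0.0851. With these numbers as a replicate block 5, 6 and 0 globin genes were called in the 3 comparisons. Over all genes, edgeR on the recovered reads called 2212, 1903 and 21 genes and DESeq2 1647, 1434 and 40, against limma's 2133, 1901 and 20.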
